A study of Homo sapiens with 6 samples.

Results

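The 10 genes described here encode subunits of the SWI/SNF chromatin remodellers, and they were taken by name as SMARCA4, SMARCA2, SMARCB1, SMARCC1, SMARCC2, SMARCE1, ARID1A, ARID1B, ARID2 and PBRM1 out of 20007 protein-coding genes. For each gene, every merged ATAC-seq region that touched the gene body or the 10 kb at either end was collected, which gave 203 of the 373067 merged regions of the series. ATAC-seq marks open chromatin by the sites at which the Tn5 transposase cuts. All libraries came from cultures of SK-N-AS (SKNAS in the labels), a human neuroblastoma line without MYCN amplification, that were grown out of dissociated mouse xenografts and left untreated in culture. The naïve cells (SKNAS-Vel) were derived from vehicle-treated xenografts. The resistant cells R1 (SKNAS-IR1) and R2 (SKNAS-IR2) were derived from indisulam-treated xenografts that had relapsed for the second time and were harvested during the third treatment cycle. Indisulam is an aryl sulfonamide that brings the splicing factor RBM39 to the DCAF15 ubiquitin ligase for degradation. Each of the 3 cell types had 2 libraries of 100000 cells. Nothing states that the 2 libraries of a cell type came from separate cultures, so the p-values measure the spread between these libraries, which may be technical. Per the methods, 3 vehicle-treated and 3 resistant tumours were dissociated, and which of them gave each cell type is not given in the sources used here.

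SWI/SNF complexes use ATP to slide or evict nucleosomes and so open promoters and enhancers. Each complex holds 1 ATPase, either SMARCA4 or SMARCA2, together with the scaffold subunits SMARCC1 and SMARCC2. The BAF and PBAF forms also contain SMARCB1 and SMARCE1, with ARID1A or ARID1B in BAF and ARID2 and PBRM1 in PBAF. The non-canonical form built around BRD9 lacks SMARCB1, SMARCE1, the ARID subunits and PBRM1. Loss of SMARCB1 defines rhabdoid tumours, and ARID1A and ARID1B are recurrently altered in neuroblastoma.

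Peak lists held 67558 to 340558 peaks. The background rate recovered from the deposited fold enrichments, in tags per 200-bp window, put R1 at 9.34 and 6.39 times the depth of the shallowest library (R2 replicate 1), naïve at 2.69 and 1.59 times and R2 replicate 2 at 1.06 times. Peaks were called from 18 and 14 tags in R1, 9 and 7 in naïve and 6 in both R2 libraries, so that the absence of a peak in R2 or naïve replicate 2 means only that a peak was not detectable at that depth. Of the markers of the labelled tumour type, 5 of 7 adrenergic and 6 of 7 mesenchymal neuroblastoma genes had a start peak in all 6 libraries. The share over all 20007 protein-coding genes was 54.7%. PHOX2A had one in 5 libraries and YAP1 in 4. Of the markers of other cells that a xenograft could hold, PTPRC, CD3E, LYZ and ALB had no start peak in any library, and PECAM1 had one in 4. The mesenchymal markers VIM and FOSL1 were lower in R1 than in naïve, by 0.97 and 0.88 on the log2 scale, and FN1 was higher by 0.78, with adjusted p of 0.0128, 0.0222 and 0.0432 (limma). FN1 was also higher in the resistant libraries together, by 0.73 (adjusted p = 0.0387, limma). The adrenergic marker ISL1 was higher in the resistant libraries by 0.73 (adjusted p = 0.0319, limma) and in R2 by 1.01 (adjusted p = 0.0296, limma). ISL1 was not called in R1 against naïve. Over the 5 adrenergic starts tested, ISL1 included, the median difference from naïve was −0.20 in the resistant libraries and −0.20 in R2. The lowest values were −0.34 and −0.56. Over the 6 mesenchymal starts tested, the median in the resistant libraries was −0.16. Each of these calls was lost when either naïve or either R1 library was left out, and the part of these states in the results below was not tested.

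The sequences under the summits that carried the comparisons are shown first. The summits lie at 1 start that differed between cell types (SMARCA2) and at its paralogue's start (SMARCA4). Others lie at a region inside SMARCA4 and a region beyond SMARCB1 that were called between cell types. The last lies at an internal ARID1B region with a peak in every library, whereas the canonical ARID1B start was not called in all of them. Each run is centred on the naïve replicate 1 summit in hg38 and is given 5′ to 3′ on the plus strand, which is the strand of all 4 genes. Capitals mark matches on either strand. The motifs searched include the GC box with the letters GGGCGG, the core of NRF1 sites with the letters GCGCATGC, the site shared by the AP-1 factors of the FOS and JUN families with the letters TGANTCA, and the core of sites of the insulator protein CTCF with the letters CCACNAG.
SMARCA2 start, chr9:2015062-2015162: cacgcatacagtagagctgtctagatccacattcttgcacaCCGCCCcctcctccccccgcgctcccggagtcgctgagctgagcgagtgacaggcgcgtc
SMARCA4 start, chr19:10960649-10960849: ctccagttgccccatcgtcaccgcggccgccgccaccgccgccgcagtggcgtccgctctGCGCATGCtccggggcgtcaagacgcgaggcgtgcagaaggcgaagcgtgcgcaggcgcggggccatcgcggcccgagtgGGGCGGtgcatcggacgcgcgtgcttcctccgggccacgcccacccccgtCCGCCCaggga
SMARCA4 intron, chr19:11035966-11036166: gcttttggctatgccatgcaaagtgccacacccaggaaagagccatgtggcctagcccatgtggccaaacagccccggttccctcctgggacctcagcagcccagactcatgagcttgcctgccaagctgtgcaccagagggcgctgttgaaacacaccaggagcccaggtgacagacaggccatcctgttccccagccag
SMARCB1 3′ flank, chr22:23849627-23849827: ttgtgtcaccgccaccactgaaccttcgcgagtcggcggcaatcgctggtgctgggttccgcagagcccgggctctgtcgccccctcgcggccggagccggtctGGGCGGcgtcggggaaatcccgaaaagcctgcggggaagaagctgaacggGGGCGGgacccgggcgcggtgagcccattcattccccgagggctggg
ARID1B intron, chr6:157021403-157021603: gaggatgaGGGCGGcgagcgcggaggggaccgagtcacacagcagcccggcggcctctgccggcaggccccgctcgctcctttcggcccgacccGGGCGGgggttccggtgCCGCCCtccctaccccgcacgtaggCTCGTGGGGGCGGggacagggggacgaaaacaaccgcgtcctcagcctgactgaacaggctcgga
The SMARCA2 and SMARCA4 summits lay 235 and 281 bp upstream of the canonical transcription start of GENCODE release 44, outside any annotated exon. The SMARCA2 window held 1 GC box, whereas the SMARCA4 window held 2 GC boxes and 1 NRF1 core match. The SMARCA4 intronic window, 75036 bp from the canonical start, held no exact match to the letters searched, and the SMARCB1 flank held 2 GC boxes. Sites that differ by 1 base are not found in this way. The intronic run holds gcaccag, which differs from CCACNAG in 1 base. The ARID1B window was the richest in GC boxes of the 5, with 4, and it also held 1 match to the CTCF letters.

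Over all 10 genes, a GC box lay within 100 bp of the naïve replicate 1 start summit in 9, the exception being ARID1A, against 64.2% of the 14312 protein-coding starts with a peak in that library. The NRF1 core was found at SMARCA4 and SMARCC1, against 3.57% of starts. SMARCB1 held the CCAAT box (28.3% of starts) and SMARCC1 the letters CCGGAAG of ETS factors (13.6% of starts). The E-box bound by MYC and related factors, CACGTG, was found at none of the 10 starts and at 6.41% of all starts. The core of YY1 sites, with the letters AAGATGG, was likewise at none of them and at 4.43% of all starts, and the AP-1 and CTCF letters were at none and at 3.22% and 10.4%. These are matches of letters on either strand of the reference and do not show binding.

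A start peak, the most significant peak within 1000 bp of the canonical transcription start, was present in all 6 libraries for 7 of the 10 genes, against 54.7% of 20007 protein-coding genes. SMARCE1, ARID1B and PBRM1 were the exceptions. The start peak of SMARCE1, which encodes a DNA-binding core subunit, held 14 tags in naïve replicate 1, 72 and 50 in R1 and 8 in R2 replicate 1, and was not called in the second naïve and R2 libraries. That of ARID1B held 11 tags in naïve replicate 1, 62 and 40 in R1 and 7 in R2 replicate 2, and was not called in naïve replicate 2 and R2 replicate 1. PBRM1, the bromodomain-rich subunit of PBAF, shares its start region with GNL3, and the peak held 16 and 13 tags in naïve, 86 and 49 in R1 and 12 in R2 replicate 1. All 3 genes were absent only from the shallower libraries, and where they had a peak it was weak. SMARCE1 ranked between percentiles 1.61 and 4.22 of the 10945 starts with a peak in all libraries, ARID1B between 0.137 and 1.32 and PBRM1 between 3.80 and 20.9.

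**Figure D1:**
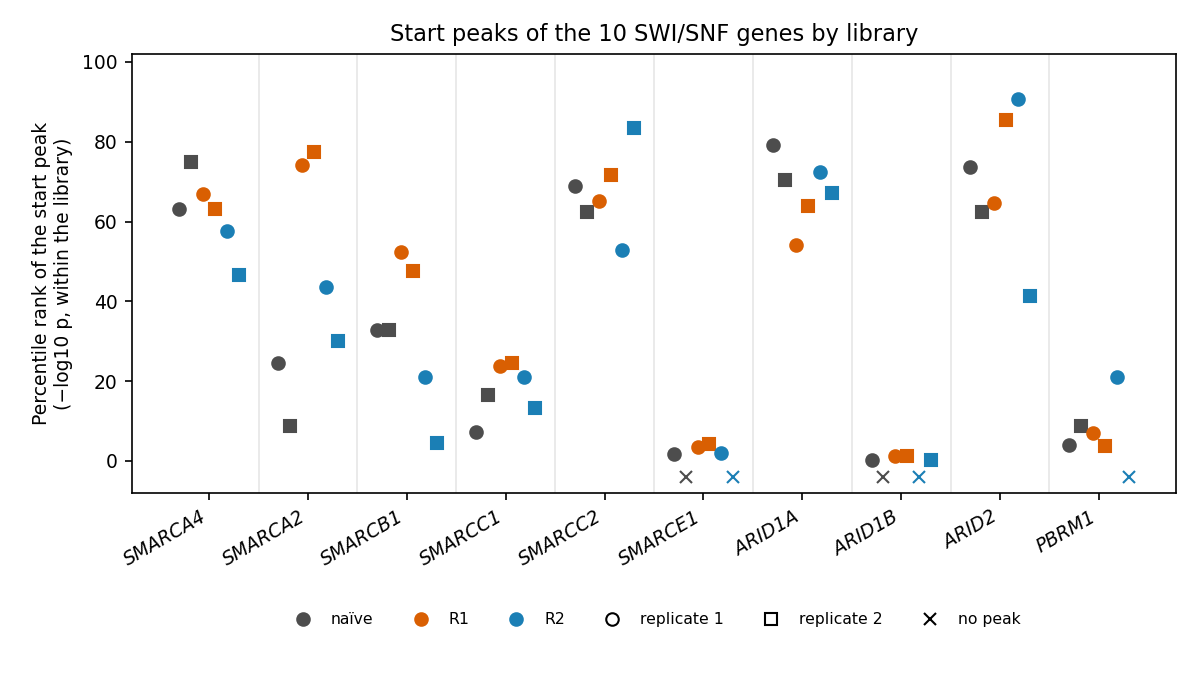
Percentile rank of the start peak of each gene within each library, by the −log10 p value of MACS2 among 10945 protein-coding starts with a peak in all 6 libraries (y axis), for the 10 genes (x axis). Circles are replicate 1 and squares replicate 2, and crosses below 0 mark libraries with no peak. SMARCA2 rises from 24.5 and 8.77 in naïve to 74.1 and 77.4 in R1, and SMARCE1 and ARID1B lie at the bottom wherever they have a peak.

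SMARCA2, the ATPase also called BRM, was the gene whose start differed between naïve and resistant cells. Its start peak held 25 and 13 tags in naïve, 215 and 147 in R1 and 16 and 14 in R2, and the deposited fold enrichments were 7.91 and 5.95, 24.2 and 23.0, and 9.19 and 7.90. Since libraries differ in depth, the peak was read as its percentile rank among all starts of its own library, which was 24.5 and 8.77 in naïve, 74.1 and 77.4 in R1 and 43.5 and 30.2 in R2. All 4 resistant libraries ranked above both naïve libraries, R1 far above and R2 in between, as did 12.7% of the 10945 starts. With 2 naïve against 4 resistant libraries an exact permutation test cannot give a two-sided p below 0.133, so differences were tested with limma over all 10945 starts on quantile-normalised log2 tags. SMARCA2 was higher in resistant than in naïve cells by 0.76 (SE 0.19, adjusted p = 0.0279), a fold of 1.69, against 3.98% of starts called higher and 2.85% called lower. In R1 the difference was 1.10 (SE 0.22, adjusted p = 0.00682), a fold of 2.14, against 5.37% of starts called higher and 4.2% lower, and only 1.01% of starts had a larger one. In R2 it was 0.42 (95% interval −0.05 to 0.89, adjusted p = 0.327) and did not pass the test. R1 exceeded R2 by 0.68 (95% interval 0.21 to 1.15, adjusted p = 0.105), so a difference between the resistant cell types was not called. For the same peak over the 24147 merged regions the difference was 0.80 (adjusted p = 0.0520, limma), which passed with the replicate block (0.0422), with median centring (0.0143) and without naïve replicate 1 (0.0494). The call for resistant against naïve was lost without naïve replicate 1 (adjusted p = 0.0660) or 2 (0.177) and without R1 replicate 1 (0.0994) or 2 (0.116), and the call for R1 was lost without naïve replicate 2 (0.0638) or either R1 library (0.0757 and 0.0862). The log2 difference stayed between 0.55 and 0.95 for the 4 resistant libraries and between 0.88 and 1.29 for R1 in those fits.

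SMARCA4, the ATPase also called BRG1 and the paralogue of SMARCA2, had a start peak of 40 and 32 tags in naïve, 198 and 125 in R1 and 19 and 17 in R2. It ranked at 63.1 and 75.0 in naïve, 66.9 and 63.2 in R1 and 57.7 and 46.5 in R2. R1 overlapped naïve, and both R2 libraries were below the other 4. The log2 difference of resistant from naïve cells was −0.18 (95% interval −0.53 to 0.17, adjusted p = 0.536) and that of R2 was −0.29 (95% interval −0.69 to 0.11, adjusted p = 0.449). In both naïve libraries SMARCA4 therefore outranked SMARCA2, in both R1 libraries SMARCA2 outranked SMARCA4, and both R2 libraries had SMARCA4 as the higher one again.

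Among the subunits shared by BAF and PBAF, SMARCB1 was the one whose 2 resistant cell types lay on opposite sides of naïve. Its start peak held 28 and 19 tags in naïve, 169 and 106 in R1 and 12 and 9 in R2. Its ranks were 32.9 and 32.7 in naïve, 52.3 and 47.7 in R1 and 21.0 and 4.40 in R2, a pattern with both R1 libraries above and both R2 libraries below naïve that 1.96% of starts had. R1 exceeded R2 by 0.78 (95% interval 0.29 to 1.28, adjusted p = 0.0804), which did not pass the test (2.96% of starts were called in either direction). The differences from naïve were 0.30 in R1 (adjusted p = 0.435) and −0.48 in R2 (adjusted p = 0.279). When the same peaks were tested over the 24147 merged regions in place of the gene starts, R1 exceeded R2 by 0.98 (SE 0.22, adjusted p = 0.0264, limma), against 1.79% of regions called higher in R1. That call was lost on leaving out any 1 of the 6 libraries, with adjusted p from 0.0510 to 0.319.

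SMARCC1 and SMARCC2, the paired scaffold subunits, differed in rank from each other, and neither was called between cell types. SMARCC1 held 18 and 15 tags in naïve, 121 and 80 in R1 and 12 and 11 in R2, at ranks of 7.23 and 16.4, 23.9 and 24.5, and 21.0 and 13.3. SMARCC2 held 43 and 27, 194 and 137, and 18 and 28 tags, at ranks of 68.8 and 62.4, 65.1 and 71.6, and 53.0 and 83.4. SMARCC2 ranked above SMARCC1 in every library, and for each gene naïve and R2 overlapped. The log2 difference of resistant from naïve cells was 0.22 for SMARCC1 (95% interval −0.18 to 0.63, adjusted p = 0.516) and 0.05 for SMARCC2 (95% interval −0.33 to 0.43, adjusted p = 0.893).

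The ARID subunits with a start peak throughout were ARID1A, the DNA-binding subunit of BAF, and ARID2, its counterpart in PBAF. ARID1A held 50 and 30 tags in naïve, 172 and 126 in R1 and 23 and 22 in R2, at ranks of 79.3 and 70.5, 54.1 and 64.0, and 72.5 and 67.2. Both R1 libraries lay below both naïve libraries, but the log2 difference was −0.28 (95% interval −0.66 to 0.11, adjusted p = 0.354). ARID2 held 46 and 27, 193 and 166, and 32 and 16 tags, at ranks of 73.6 and 62.4, 64.7 and 85.4, and 90.7 and 41.4. Its 2 R2 libraries enclosed all the others, and the log2 difference of resistant from naïve cells was 0.10 (95% interval −0.38 to 0.57, adjusted p = 0.839). Of the 7 genes tested, SMARCA2 was thus the 1 called in resistant against naïve cells and in R1 against naïve cells, with a median difference over the 7 of 0.05 and 0.15 against −0.01 and −0.02 over all starts. None was called in R2 against naïve cells or in R1 against R2 by limma, where 1.71% and 2.96% of starts were called. At an unadjusted p under 0.05 there were 0 and 2 of the 7, against 18.4% and 19.7% of all starts.

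**Figure D2:**
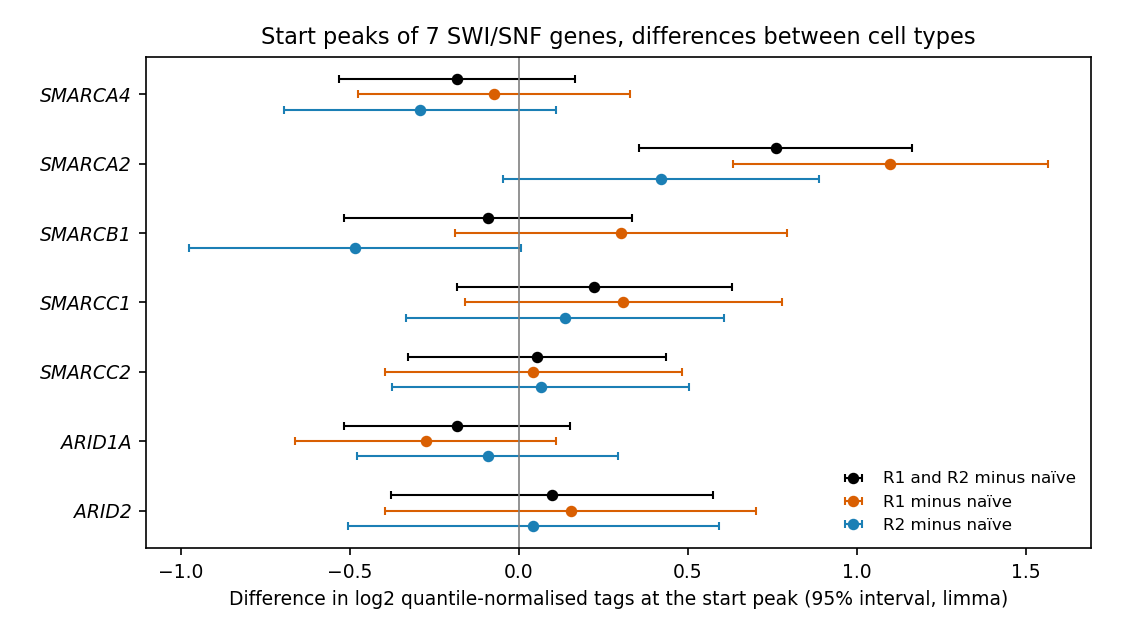
Difference in log2 quantile-normalised tags at the start peak (x axis) of the 7 genes with a start peak in all libraries (y axis), from limma over 10945 gene starts. Points are estimates and bars 95% intervals, for all resistant minus naïve libraries (black), R1 minus naïve (orange) and R2 minus naïve (blue). The intervals of SMARCA2 leave out 0 for all resistant libraries (0.36 to 1.16) and for R1 (0.63 to 1.57), and those of the other 6 genes include it.

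Each start was next set against its neighbours on the chromosome, namely the 10 gene starts on either side that had a peak in all libraries, since a shift shared by a whole stretch is not particular to 1 gene. Rank shift is the mean rank of the 4 resistant libraries minus that of the 2 naïve libraries, in percentile points. SMARCA2 shifted by 39.6 points and its neighbours by a median of 8.62, with a maximum of 16.5, so that it exceeded all 10 of them. The excess of 31.0 points was above that of 98.4% of all starts, whose middle 90% ran from −20.6 to 22.0 points. Split by cell type, the excess was 46.9 points for R1 and 16.3 for R2. SMARCA2 lies near the end of chromosome 9, so it had 10 neighbours rather than 20. They spanned 12.6 Mb, and the nearest, PUM3, which encodes an RNA-binding protein, started 829 kb away. PUM3 ranked at 27.4 and 0.566 in naïve, 7.87 and 7.22 in R1 and 48.2 and 13.3 in R2, so it did not share the rise in R1. In R2, however, PUM3 shifted by 16.8 points, against 20.2 for SMARCA2.

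SMARCB1 and SMARCA4 lay in neighbourhoods that themselves shifted. On chromosome 22 the 20 neighbours of SMARCB1 shifted up by a median of 20.7 points, whereas SMARCB1 shifted by −1.45, a difference of −22.1 points, lower than in all but 3.97% of starts. The value of −1.45 is the mean of 17.2 points in R1 and −20.1 in R2. The difference from the neighbours was −10.6 points in R1 and −25.5 in R2. The adjacent genes were MMP11, a matrix metalloproteinase 14.1 kb upstream, which shifted by 25.3 points (log2 difference 0.62, adjusted p = 0.0590, limma), and DERL3, which acts in protein quality control of the endoplasmic reticulum and shifted by −4.22 points. On chromosome 19 the median shift of the 20 neighbours of SMARCA4 was −23.8 points, and SMARCA4 shifted by −10.5, which was 13.3 points above them. This excess was within the middle 90% of all starts (above 86.5% of them), and 15 of the 20 neighbours lay below SMARCA4. By cell type the difference was 27.1 points for R1 and −2.65 for R2. The adjacent gene TIMM29, a mitochondrial import factor, shifted by −23.1 points. Without naïve replicate 1 the excess of SMARCA4 over its neighbours was 2.19 points, and without R1 replicate 1 it was 6.18. Whether these stretches changed in DNA copy number or in accessibility cannot be told apart from peak lists.

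The other 4 genes stayed close to their neighbours. The difference between gene and neighbours was 8.48 points for SMARCC1, −4.04 for SMARCC2, −2.57 for ARID1A and −2.42 for ARID2, within or near the quartiles of all starts (−7.57 to 7.66). For ARID1A the neighbours RPS6KA1 and PIGV shifted by −0.431 and 11.7 points, and for ARID2 the neighbours ANO6 and SCAF11 by 3.64 and −12.2. For SMARCC1 the neighbours ELP6 and DHX30 shifted by 8.44 and 3.05 points, and for SMARCC2 the neighbours MYL6 and RNF41 by 12.1 and 8.53.

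**Figure D3:**
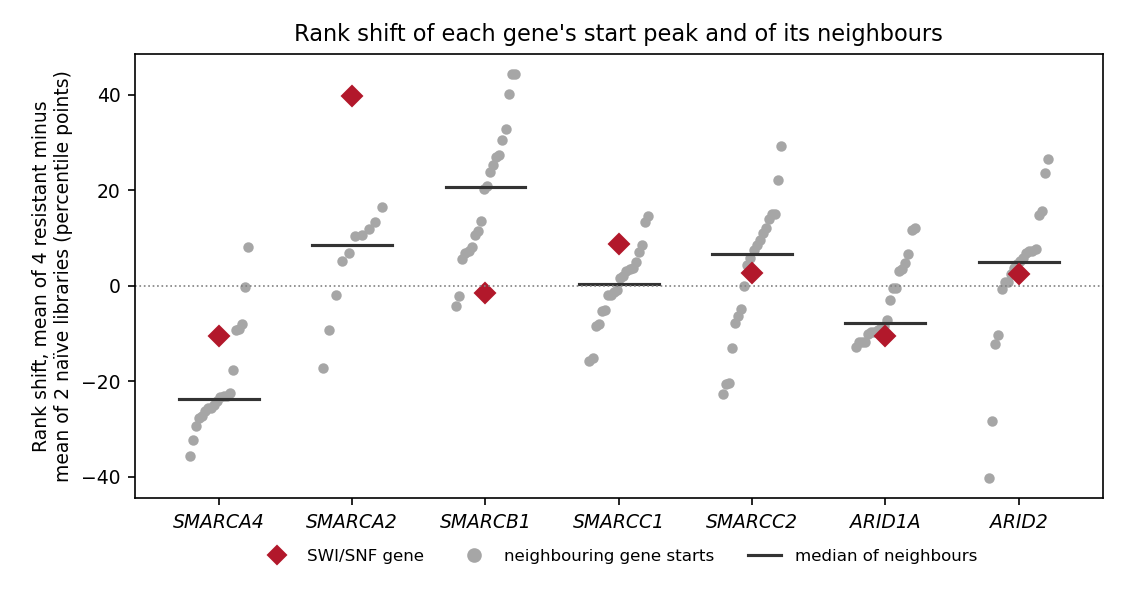
Rank shift of the start peak between naïve and resistant libraries in percentile points (y axis) for 7 SWI/SNF genes (red diamonds) and their neighbouring gene starts (grey points, 10 on either side, or 10 in all for SMARCA2), with the median of the neighbours as a bar. SMARCA2 stands above all of its neighbours. SMARCB1 stands near 0, the mean of a rise in R1 and a fall in R2, while the median of its neighbours is 20.7.

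The starts whose ranks over the 6 libraries lay closest to those of SMARCA2 were RGS7, a regulator of G-protein signalling, TNS3, a focal adhesion protein, and TMEM121B, with mean absolute differences of 4.91, 6.14 and 6.24 points. For SMARCA4, the gene with the lowest rank shift of the 7, they were EEIG2, TMEM230 and MAST2, at 3.75, 3.76 and 3.96 points.

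The number of open regions differed widely between the loci, which also differ in length. SMARCA4 held 78 of the 203 merged regions, ARID1A 39, SMARCB1 and SMARCC2 27 each, ARID1B 11 over its 435-kb body, SMARCE1 6, SMARCA2, SMARCC1 and PBRM1 4 each and ARID2 3. Of the 203, 25 (12.3%) had a peak in all 6 libraries, against 6.47% of all regions, and 98 (48.3%) were found in R1 alone, the cell type with the deepest libraries, against 67.1% of all regions. The 203 were collected at genes, their starts included, whereas all regions also take in stretches away from genes. These shares therefore do not compare like sets. The 213-kb body of SMARCA2 held no called peak beyond the first few kb from its start. The start region alone had a peak in all 6 libraries, and its other 3 regions were seen in R1 only. GENCODE places 9 further clusters of SMARCA2 transcript starts along the gene, among them a cluster of 20 transcripts 143 kb into the gene, and none held a peak in any library.

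SMARCA4 had peaks throughout its length in naïve and R1 cells. It held 67 and 60 peaks in naïve, 68 and 59 in R1 and 10 and 7 in R2, which covered 31.9% and 19.5%, 39.1% and 31.5%, and 2.75% and 2.12% of the gene body and its flanks. Ranked among all 20007 genes within each library, the share covered stood at 87.4 and 86.7 in naïve, 74.0 and 73.4 in R1 and 70.8 and 64.0 in R2. All 4 resistant libraries lay below both naïve libraries, as they did for 9.29% of genes. The shift of −16.5 points was lower than that of each of its 20 neighbouring genes, which ranged from −15.4 to −6.53 with a median of −9.31, although neighbouring windows can share peaks. No formal test was made of these ranks. Set beside the start, SMARCA4 shifted down less than the median of its neighbours in the rank of its promoter peak and more than any of its neighbours in the rank of the share covered.

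**Figure D4:**
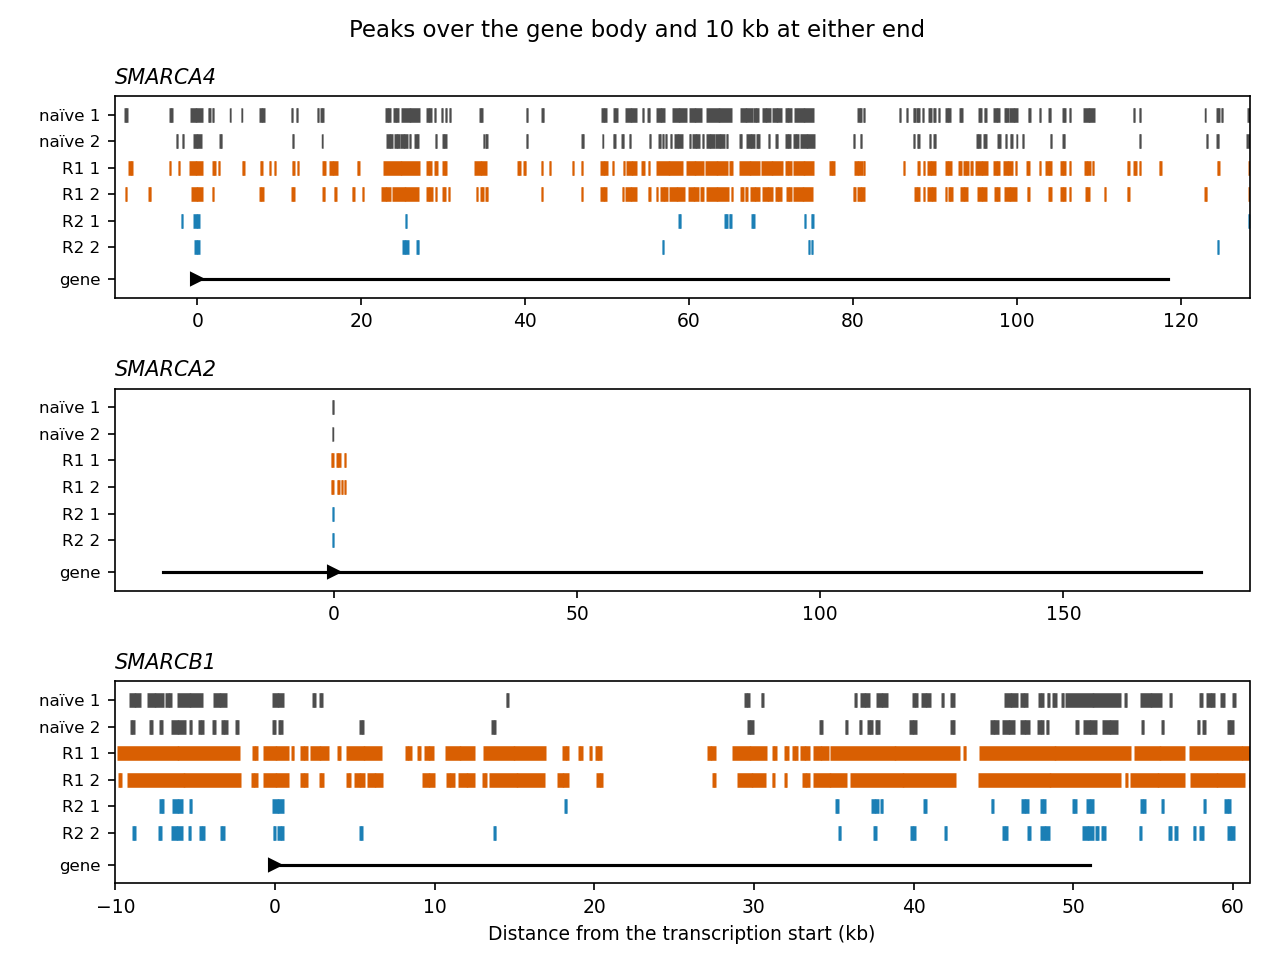
Peaks over SMARCA4, SMARCA2 and SMARCB1 in each library (rows, naïve grey, R1 orange, R2 blue) by distance from the canonical transcription start in kb (x axis), from 10 kb before the gene to 10 kb after it. Blocks are peaks to scale with a thin tick at the middle of each, and the black line is the gene. SMARCA4 has 67 and 60 peaks in naïve and 10 and 7 in R2, SMARCA2 has none in any library beyond the first few kb, and long stretches of SMARCB1 are covered in R1.

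SMARCB1 showed the converse pattern. Its covered share ranked at 85.1 and 85.6 in naïve, 92.6 and 92.0 in R1 and 88.8 and 90.6 in R2, and all 4 resistant libraries lay above both naïve libraries, as for 14.3% of genes. The shift of 5.66 points was near the median of 5.96 for its 20 neighbouring genes. Its start peak instead shifted by 17.2 points in R1 and −20.1 in R2, against neighbour medians of 27.8 and 5.41. In covered share, no other gene of the 10 had its resistant libraries all on 1 side. In 4 of the 10 genes, ARID1A, SMARCA2, ARID2 and PBRM1, both R1 libraries ranked below the 4 others, as in 35.7% of genes. The R1 ranks were 60.2 and 60.4 against 67.3 to 77.8 for ARID1A, 12.6 and 14.2 against 18.2 to 25.7 for SMARCA2, 21.5 and 25.0 against 36.4 to 44.0 for ARID2, and 13.9 and 15.6 against 27.9 to 38.9 for PBRM1.

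**Figure D5:**
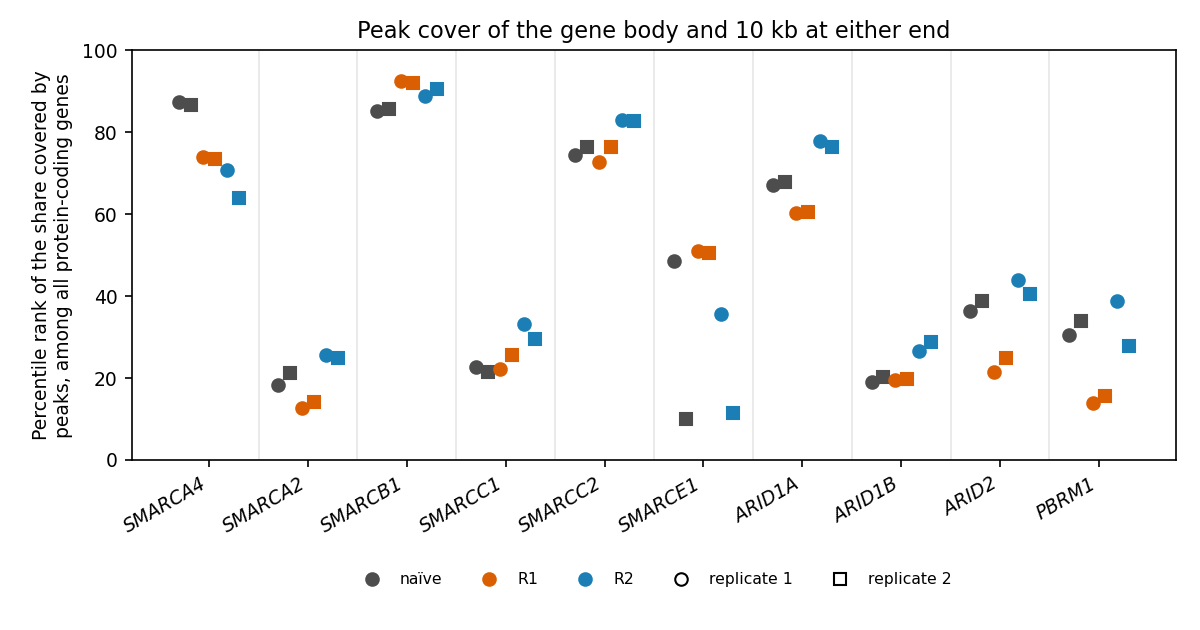
Percentile rank of the share of the gene body and 10 kb at either end that peaks cover, among 20007 protein-coding genes within each library (y axis), for the 10 genes (x axis). Circles are replicate 1 and squares replicate 2. SMARCA4 lies at 87.4 and 86.7 in naïve and between 64.0 and 74.0 in the resistant libraries, and SMARCB1 lies higher in all resistant libraries than in naïve.

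Of the 25 regions with a peak in all libraries, 3 were called in resistant against naïve cells by limma over 24147 regions. The SMARCA2 start region, on chromosome 9 from 2014670 to 2015388, was higher by 0.86 (SE 0.19, adjusted p = 0.0232). A region beyond the 3′ end of SMARCB1, on chromosome 22 from 23844247 to 23850907, was higher by 0.75 (SE 0.19, adjusted p = 0.0382), with 30 and 15 tags in naïve, 199 and 152 in R1 and 17 and 19 in R2. Its summits lay 11.7 kb beyond the gene in all 6 libraries, outside the 10-kb flank, which only part of the region touches. Its sequence is the SMARCB1 flank shown above, and it holds no canonical protein-coding start. A region inside SMARCA4, on chromosome 19 from 11016936 to 11022825, was lower by 0.77 (SE 0.18, adjusted p = 0.0297), with 25 and 18 tags in naïve, 57 and 38 in R1 and 7 and 9 in R2. Its strongest peak lay at different places along the region, with summits up to 2138 bp from that of naïve replicate 1, so the values are not those of 1 site. Both resistant cell types ranked below naïve, at 10.9 and 8.99 in R1 and 1.29 and 11.7 in R2 against 44.8 and 49.8. Over all regions 3.98% were called higher and 3.82% lower. The gene starts around SMARCA4 and SMARCB1 shifted in the same directions as these 2 loci's called regions, by medians of −23.8 and 20.7 points. Regions were not set against their neighbourhoods, so whether those 2 calls are particular to their loci was not tested. All 3 calls were lost without any 1 of the naïve or R1 libraries, where 0 to 232 regions were called in the whole table. Without R2 replicate 1 or 2 the SMARCB1 flank was also lost (adjusted p = 0.0667 and 0.0791), as was SMARCA2 without R2 replicate 1 (0.0528).

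A second region inside SMARCA4 separated R1 from R2. It lay on chromosome 19 from 11033710 to 11036359, overlapping a cluster of 3 annotated transcript starts, and held 31 and 25 tags in naïve, 71 and 54 in R1 and 18 and 22 in R2. All 6 summits lay within 47 bp of that of naïve replicate 1, in the SMARCA4 intron sequence shown above. Its rank was 62.0 and 74.0 in naïve, 24.2 and 30.8 in R1 and 71.0 and 80.7 in R2, so R2 was level with naïve and R1 was below both. R1 was lower than R2 by 0.97 (SE 0.21, adjusted p = 0.0206) and lower than naïve by 0.79 (SE 0.21, adjusted p = 0.0333), against 4.82% and 6.02% of regions called lower. The call against R2 was lost without either R1 library (adjusted p = 0.298 and 0.198) or either R2 library (0.0603 and 0.0781), and the call against naïve without either naïve (0.0725 and 0.134) or either R1 library (0.341 and 0.231).

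ARID1B, which had the weakest canonical start of the 10 genes, had 1 region with a peak in all libraries, and it lay inside the gene. On chromosome 6 from 157021007 to 157022330, it held 16 and 12 tags in naïve, 100 and 64 in R1 and 9 and 13 in R2, against 11, 62, 40 and 7 in the 4 libraries with a peak at the canonical start. It covers an annotated transcript start 245 kb downstream of the canonical one, and its sequence is the ARID1B intron shown above. The log2 difference of resistant from naïve cells was 0.47 (SE 0.20, adjusted p = 0.172).

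The rest of the family gave a background for these genes. Of 19 other SWI/SNF subunits, among them the actin-related ACTL6A, the bromodomain subunit BRD9 and SS18, 16 had a start peak in all libraries. None of the 16 was called by limma in resistant, R1 or R2 against naïve cells, where 1, 3 and 1 had an unadjusted p under 0.05, against 23.5%, 26.6% and 18.4% of all starts. Their median difference of resistant from naïve cells was −0.01 (range −0.33 to 0.46), close to the −0.01 of all starts. Of 17 ATPases of other remodeller families, 12 had a start peak in all libraries, and 2 were called higher in resistant cells. Over all starts, 3.98% were called higher in resistant cells. For both lists, the share of all protein-coding genes with a start peak in all libraries was 54.7%. CHD6, a chromodomain helicase, ranked at 88.1 and 75.0 in naïve, 99.4 and 98.9 in R1 and 97.8 in R2 replicates 1 and 2 alike, and was higher by 0.77 (SE 0.14, adjusted p = 0.00511). CHD7, the chromodomain helicase mutated in CHARGE syndrome, ranked at 67.1 and 52.1, 85.9 and 87.7, and 89.3 and 89.9, and was higher by 0.60 (SE 0.15, adjusted p = 0.0253). CHD8 was lower in R1 by 0.66 (SE 0.20, adjusted p = 0.0490), against 4.2% of starts called lower in R1. CHD6 kept its call in resistant cells except without naïve replicate 2 (adjusted p = 0.0797), whereas CHD7 and CHD8 lost theirs without either naïve or either R1 library.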

How the data were processed

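ATAC-seq peak lists of 6 libraries were analysed. Per the submitters' methods and processing notes, reads were aligned with BWA 0.7.12-r1039, duplicates were marked with Picard 1.65, reads were filtered with SAMtools 1.3.1, mitochondrial reads were removed, ends were offset by +4 and −5 bp for the Tn5 cut, and peaks were called per library with MACS2 2.2.7.1 (q 0.01, extension 200 bp, shift 100 bp). The stated shift is positive, which places tags downstream of the cut. The methods name hg19 and the notes hg19 and hg38. Every peak ended within the hg38 length of its chromosome, the last of chromosome 1 within 10008 bp of its end, so hg38 was used. The authors deposited fold enrichment, a ratio of pileup to background, and −log10 p and −log10 q values.

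Because the fold is (tags + 1)/(rate + 1), the rate and the whole tag pileup were recovered, to within 0.000123 of a whole number for peaks under 200 tags. Starts are the canonical starts of GENCODE release 44, taken with 1000 bp on either side. A peak belonged to a window from 1 bp of overlap, and overlapping peaks of all libraries were merged into regions. Log2 tags were quantile-normalised and fitted with limma 3.58.1 (R 4.3.3, trended variance) over features with a peak in all 6 libraries, with Benjamini-Hochberg adjustment at 0.05. This keeps features strong enough for the shallowest library. Pileups are maxima within peaks rather than read counts, and a test on simulated tags for resistant against naïve cells recovered 89 of 172 changes of 2-fold among 10497 starts, with 2 false calls. The spread between simulated libraries was set in advance rather than taken from these libraries. R1 and R2 were given the same change, and unchanged starts had no difference between groups. These counts therefore do not give the rate of false or missed calls in these data. All 10 genes are named, with their adjacent starts (a few genes that this rule or the marker lists would name are not reported here), the 3 starts most like the genes of highest and lowest shift, and up to 5 called genes of each list. The genes and lists were chosen with earlier results of these data known. Alternatives were the window, centring, fold, a q value cutoff, GC adjustment, array weights, the replicate number as a block, neighbour definitions and leaving out each library. Sequences came from the reference genome. RNA measurements were not analysed here.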

Additional observations from a re-analysis of the deposited data

Results flagged for a closer look

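The 2 resistant cell types stood on opposite sides of naïve at the SMARCB1 start, with ranks of 52.3 and 47.7 in R1, 32.9 and 32.7 in naïve, and 21.0 and 4.40 in R2. The log2 difference between R1 and R2 was 0.78 over gene starts (adjusted p = 0.0804, limma), which did not pass the test. Over merged regions the difference between R1 and R2 at the same SMARCB1 peaks was 0.98 (adjusted p = 0.0264, limma), which did. These are not values of 1 site. The summit lay 301 and 311 bp downstream of the start in naïve replicate 2 and R2 replicate 2, and upstream of it in the other libraries. The R2 values were 12 and 9 tags, and in R2 replicate 2 a start with 11 tags ranked at 13.3 and one with 9 at 4.40. At the region inside SMARCA4 on chromosome 19 from 11033710, R1 was lower than R2, with a difference of −0.97 (adjusted p = 0.0206, limma). The difference of each cell type from naïve there was −0.79 in R1 (adjusted p = 0.0333) and 0.19 in R2 (adjusted p = 0.649). The causes were not tested. Groups of 2 libraries are too small for a search for single deviating samples.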

How the results depend on the processing

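The count of SWI/SNF gene starts called was 1 in resistant and in R1 against naïve cells and ranged from 0 to 1 in both when 1 library was left out. No other setting changed either count. In R1 against R2 it was 0, and 1 with array weights, where SMARCB1 passed (adjusted p = 0.0337). Over all starts, array weights moved the calls from 1048 to 2048 in R1 against naïve, from 187 to 105 in R2 against naïve and from 324 to 680 in R1 against R2, GC adjustment moved the last to 176, and the block moved R2 against naïve to 361. With 1 naïve or R1 library left out, 28 to 301 of 748 starts were called in resistant and 152 to 306 in R1 against naïve, 12 to 52 were in R2 against naïve without a naïve library or R2 replicate 1, and 47 to 137 in R1 against R2 without any library but R2 replicate 2. The 3 called regions became 0 when a peak had to cover 0.5 of the region, which left 2266 regions to test, and 0 to 3 with 1 library left out. The number of genes above the median of their neighbours was 3, and 3 to 6 with 1 library left out. Ranked within the whole list, where starts crowd near the top, the SMARCA2 excess was 4.77 points. Regions open in all libraries rose from 25 to 47 with 50 kb on either side. Among starts, directions reversed for differences near 0 that were called in no setting. These were SMARCC2 in R1 against naïve with median centring (−0.0033), ARID1A in R2 against naïve with GC adjustment (0.046), ARID2 in R1 against R2 with a 2000-bp window (−0.072), and the following with 1 library left out. For resistant against naïve cells the ranges were −0.24 to 0.033 for SMARCB1, −0.083 to 0.19 for SMARCC2 and −0.15 to 0.34 for ARID2. For R1 against naïve they were −0.18 to 0.032 for SMARCA4, −0.018 to 0.10 for SMARCC2 and −0.060 to 0.37 for ARID2. For R2 against naïve they were −0.0022 to 0.27 for SMARCC1, −0.22 to 0.35 for SMARCC2 and −0.45 to 0.53 for ARID2. For R1 against R2 they were −0.31 to 0.27 for SMARCC2 and −0.37 to 0.60 for ARID2. Of the regions, the SMARCA4 region from 11016936 reversed in R1 against R2 (0.19, and −0.15 with median centring and −0.013 without R2 replicate 1), and the SMARCB1 start region in resistant against naïve (−0.025, and 0.051 with median centring, 0.0029 without R1 replicate 2 and 0.099 without R2 replicate 2). Same-numbered libraries did not deviate together (correlations 0.0567, −0.0170 and 0.00135), so no shared effect of the replicate number was seen. Whether same-numbered libraries were prepared together is not stated. The replicate block left SMARCA2 as the 1 start called. Depth limits R2, where peaks began at 6 tags.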

Other observations

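Several of the genes were open at places other than their canonical start. ARID1A had a second open start, on chromosome 1 from 26692161 to 26693505, which lies over a transcript start at −2779 bp from the canonical one and held 38 and 20 tags in naïve, 99 and 74 in R1 and 20 and 12 in R2 (log2 difference of resistant from naïve −0.28, SE 0.23, adjusted p = 0.495, limma). Its intron held a further region open in every library, from 26723107 to 26723952, with 29 and 23, 108 and 86, and 12 and 22 tags. ARID2 had a companion region about 2 kb upstream of its start, on chromosome 12 from 45726817 to 45728141, with 38 and 27 tags in naïve, 229 and 141 in R1 and 27 and 26 in R2, and the difference of 0.38 (SE 0.15, adjusted p = 0.141) did not pass the test. In R1 replicate 1 and R2 replicate 2 this region held more tags than the 193 and 16 of the ARID2 start itself.

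Annotated internal starts differed between genes. All 9 clusters of SMARCA4 transcript starts had a peak in at least 3 libraries and 3 of them in all 6, whereas 9 of 10 clusters of SMARCA2, 7 of 10 of ARID1B and 3 of 4 of ARID2 had none in any library. SMARCC1, SMARCC2 and SMARCE1 have 1 cluster each.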
